A study of Mus musculus with 6 samples.

Results

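Genes of cholesterol and fatty acid metabolism were followed in cultures of stem-like prostate cancer cells. The cells came from TRAMP mice, a strain in which a probasin promoter drives a viral oncogene in prostate epithelium and causes tumours. The set was chosen by gene symbol from the known pathways and holds 42 genes, of which 38 had a row of their own among the 9490 genes of the array table. They fall into 17 genes of sterol synthesis, 4 of the control of the SREBP transcription factors, 9 of fatty acid synthesis, 4 of 5 listed for fatty acid uptake and 4 of 7 listed for fatty acid oxidation. The expression of Cd36, Cpt2, Acadm and Hadha was not analysed here, and these genes enter only the promoter counts. The 3 TNE samples are cells from prostates of TRAMP mice with neuroendocrine tumours, whose age is not given in the labels. The 3 TPIN samples are cells from prostates of TRAMP mice aged 10 to 11 weeks with intraepithelial neoplasia. All 6 samples were cultured cells with the TRAMP transgene, grown in the same serum-free medium with EGF and FGF2. Neither group is therefore normal prostate, and normal prostate was not analysed here. Values are RMA-normalised log2 expression, and differences are TNE minus TPIN with the standard error (SE) and the Benjamini-Hochberg adjusted p of limma, fitted over all 9490 genes. The threshold was an adjusted p under 0.05.

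Cells build cholesterol from acetyl-CoA through mevalonate, squalene and lanosterol, and build fatty acids from the same precursor through malonyl-CoA. When the sterol content of the endoplasmic reticulum is low, the membrane-bound factor SREBP-2 is released by proteolysis and switches on the sterol genes together, often with the factor NF-Y, which binds the letters CCAAT. SREBP-1 drives fatty acid synthesis and desaturation more strongly. Fatty acid oxidation runs the other way: carnitine palmitoyltransferases carry acyl chains into mitochondria, where dehydrogenases, hydratases and thiolases shorten them. In prostate cancer, lipid synthesis is known as a target of androgen signalling.

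The promoters of sterol genes are shown because these genes shared an order over the TNE arrays, with TNE replicate 3 lowest in 16 of 17. Over TPIN replicates 1 to 3 they did not all move alike. Hmgcs1 rose (11.15, 11.58 and 12.53) and Idi1 fell (9.82, 9.51 and 9.25). RefSeq windows (GRCm38.p6, 250 bases before to 50 after the gene start) were found for 32 of the 42 genes, with Fabp4, Fabp5, Fads1, Fdft1, Fdps, Lpl, Scd1, Scd2, Sqle and Stard4 not matched. Both strands were searched for CCAAT, for the core of the sterol regulatory element (TCACNCCAC), for the E-box CACGTG and for the PPAR response element (AGGTCA repeated after 1 base). CCAAT was present in 14 of 14 sterol synthesis genes and in 3 of 3 SREBP control genes with a window. It was present in 3 of 6 fatty acid synthesis genes, in 2 of 2 uptake genes (Cd36 and Pparg) and in 1 of 7 oxidation genes, Cpt1a. These counts follow the gene lists, so they include Cd36, Cpt2, Acadm and Hadha, whose expression was not analysed. Over all 27025 genes with a promoter window, 41.1% held CCAAT. Some genes have several windows, and among genes with 1 window the letters were in 12 of 12 sterol synthesis genes and in 38.2% of all genes. The sterol element core was found in 1 member, Hmgcs1, and in 1.44% of all genes. The E-box was found in 5 of the 32 members (Hsd17b7, Sc5d, Dhcr7, Insig1 and Elovl5) and in 8.09% of all genes, and the PPAR element in none of the 32 members and in 0.0481% of all genes. A match describes letters and not binding, and CCAAT is short. The sterol element was searched only as TCACNCCAC, so a window without a match may still hold another form of it. In 2 windows of the whole table the sterol element core and CCAAT overlapped.

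The windows below belong to the 3 sterol synthesis genes with the widest range over the TNE arrays (Msmo1, Idi1 and Hmgcs1), to the sterol synthesis genes with the most negative and the most positive difference (Nsdhl and Ebp), all among genes with a window, and to the oxidation gene Hadhb for contrast. Capitals mark CCAAT or its reverse complement ATTGG and, in Hmgcs1, the sterol element core. They lie at chr8:64733529-64733828 (minus strand), chr13:8885356-8885655 (plus), chr13:119690101-119690400 (plus), chrX:72918271-72918570 (plus), chrX:8193463-8193762 (minus) and chr5:30155003-30155302 (plus). In Msmo1 the 3 boxes begin 160, 96 and 55 bases before the start, and the Hadhb window holds no match.
Msmo1: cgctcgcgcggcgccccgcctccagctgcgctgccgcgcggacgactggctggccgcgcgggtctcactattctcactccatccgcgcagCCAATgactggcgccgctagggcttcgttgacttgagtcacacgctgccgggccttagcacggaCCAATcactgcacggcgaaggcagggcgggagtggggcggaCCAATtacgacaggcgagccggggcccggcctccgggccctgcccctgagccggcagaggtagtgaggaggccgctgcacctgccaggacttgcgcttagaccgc
Idi1: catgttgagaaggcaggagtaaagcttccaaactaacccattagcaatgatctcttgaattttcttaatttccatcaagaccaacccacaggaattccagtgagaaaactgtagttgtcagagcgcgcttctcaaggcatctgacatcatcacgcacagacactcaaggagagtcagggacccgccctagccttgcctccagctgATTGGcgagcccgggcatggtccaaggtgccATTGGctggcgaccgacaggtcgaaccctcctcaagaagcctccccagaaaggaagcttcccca
Hmgcs1: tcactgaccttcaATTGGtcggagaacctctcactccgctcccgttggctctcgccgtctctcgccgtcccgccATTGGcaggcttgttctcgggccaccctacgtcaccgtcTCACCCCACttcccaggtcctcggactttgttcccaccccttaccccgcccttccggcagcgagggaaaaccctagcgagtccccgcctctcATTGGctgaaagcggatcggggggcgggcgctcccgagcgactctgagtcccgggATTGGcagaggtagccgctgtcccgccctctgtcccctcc
Nsdhl: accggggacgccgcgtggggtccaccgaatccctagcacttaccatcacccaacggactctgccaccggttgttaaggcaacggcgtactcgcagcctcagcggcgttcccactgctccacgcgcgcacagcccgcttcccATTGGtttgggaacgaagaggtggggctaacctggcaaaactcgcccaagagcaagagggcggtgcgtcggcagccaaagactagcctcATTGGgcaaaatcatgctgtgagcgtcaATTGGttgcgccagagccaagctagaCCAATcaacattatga
Ebp: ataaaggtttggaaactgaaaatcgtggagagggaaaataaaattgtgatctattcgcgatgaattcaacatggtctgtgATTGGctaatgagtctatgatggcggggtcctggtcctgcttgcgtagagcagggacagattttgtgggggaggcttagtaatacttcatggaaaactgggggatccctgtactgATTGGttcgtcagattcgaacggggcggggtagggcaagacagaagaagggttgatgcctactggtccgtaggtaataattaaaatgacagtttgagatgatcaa
Hadhb: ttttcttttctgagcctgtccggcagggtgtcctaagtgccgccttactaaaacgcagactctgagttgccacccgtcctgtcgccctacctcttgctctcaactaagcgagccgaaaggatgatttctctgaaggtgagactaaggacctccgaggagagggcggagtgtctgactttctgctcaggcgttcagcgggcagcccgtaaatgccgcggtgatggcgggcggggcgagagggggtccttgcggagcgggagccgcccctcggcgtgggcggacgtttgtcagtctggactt

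The arrays of a group were not alike. TNE replicate 3 had the lowest array median of the 6, 8.82, and TNE replicate 1 the highest, 9.10, against 8.98 to 9.03 in TPIN. Correlation over all rows was 0.825 to 0.917 within TNE, 0.842 to 0.905 within TPIN and 0.549 to 0.733 between them. Fibroblast and smooth muscle markers (15 of 17 measured, 11 past the threshold and all 11 lower in TNE) averaged 7.65 to 8.49 on the TNE arrays and 11.21 to 11.51 on the TPIN arrays, with differences of -2.82 for Dcn and -2.78 for Col3a1. Neuroendocrine markers (6 of 14 measured, 4 higher in TNE) averaged 9.30 to 10.89 on the TNE arrays and 7.99 to 8.54 on the TPIN arrays. Among them Ncam1 had a difference of 0.04 and Uchl1 of 2.67. Of the 6 genes, 1 had a negative difference, with all TNE arrays below all TPIN arrays, and it did not pass. Of 13 epithelial markers only Krt8 and Krt18 had rows, with differences of -0.33 and -0.66, and neither passed. Endothelial markers (4 of 9 measured) had 1 gene higher in TNE, Cdh5, and 1 lower, Flt1. Proliferation genes (19 of 20 measured) had positive differences in all 19, of which 17 passed. Macrophage markers had rows for 2 of 9 genes, Cd68 and Lyz2, and adipocyte markers for 1 of 8, Lipe, at 8.05 to 8.79 in TNE and 7.81 to 8.57 in TPIN.

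Across the 38 genes, TNE and TPIN cells differed past the threshold in 1 gene, the stearoyl-CoA desaturase Scd1, which was lower in TNE. Of all 9490 genes 20.5% passed, 10.3% higher and 10.2% lower in TNE, so the share among these genes was below the background. At an unadjusted p under 0.05 there were 11 of 38 genes, against 38.9% of all genes. The groups did not overlap for 5 genes lower and 2 genes higher in TNE, against 43.8% of all genes in either direction. The median size of the difference was 0.60 for the 38 genes and 0.66 for all genes. In bulk RNA, fewer cells of a type and less RNA per cell cannot be told apart.

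**Figure D1:**
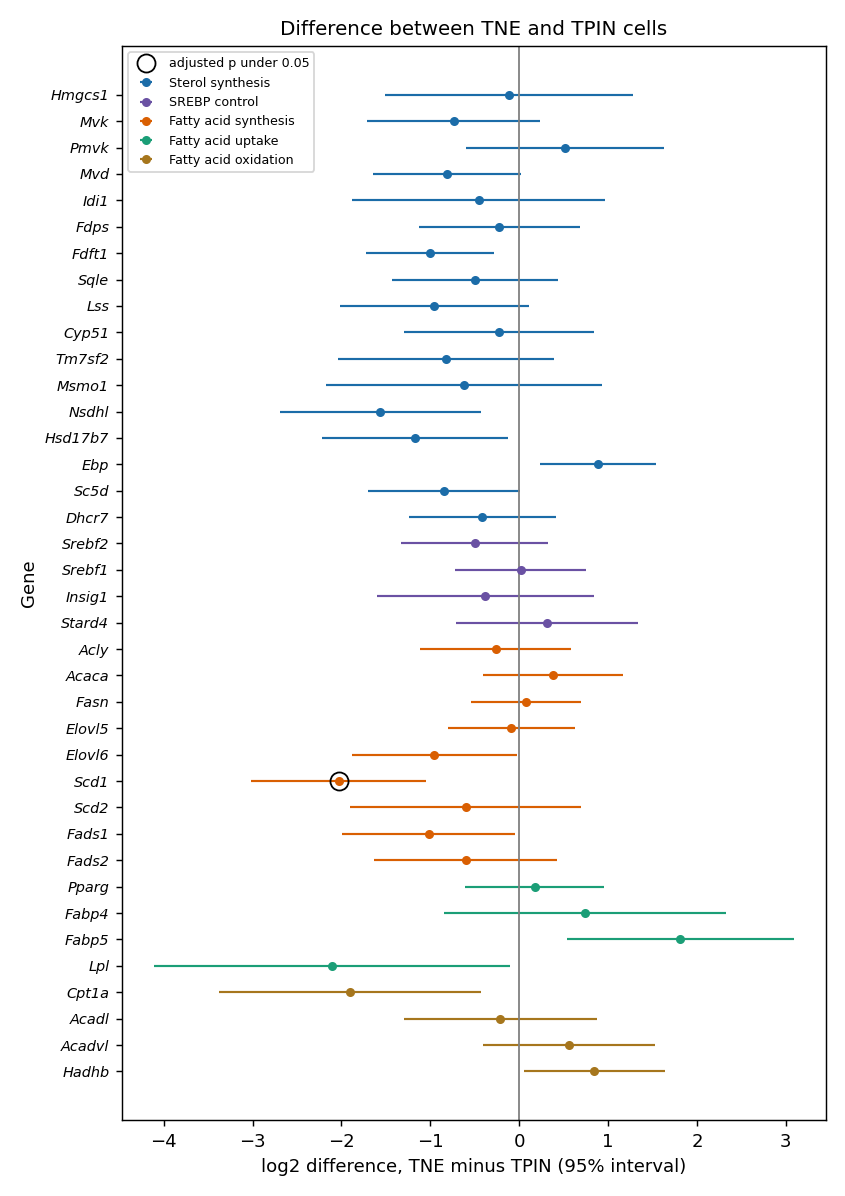
Log2 difference, TNE minus TPIN (horizontal axis), of each of the 38 genes (vertical axis), with the 95% interval of limma as a bar and colours for the gene groups. The circle marks Scd1, the gene past the threshold, at -2.03, and the intervals of 11 genes, Scd1 among them, do not cross 0.

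In sterol synthesis no gene of 17 passed limma's threshold, and 4 had an unadjusted p under 0.05 (Fdft1, Nsdhl, Hsd17b7 and Ebp). The difference was negative for 15 genes (14 after quantile normalisation, which turned Hmgcs1) and positive for 2, Pmvk and Ebp, with a median of -0.62 against -0.02 for all genes. Nsdhl, the dehydrogenase that decarboxylates sterols at C4, had 10.47, 9.36 and 8.55 in TNE and 11.15, 11.30 and 10.62 in TPIN. Every TNE array lay below every TPIN array, by as little as 0.15 between neighbours. Its difference was -1.56 (SE 0.49, limma adjusted p = 0.0573). Without TNE replicate 1 it passed at -2.07, and without TNE replicate 3 it was -1.11.

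Among the mevalonate enzymes, Hmgcs1, which joins acetyl-CoA and acetoacetyl-CoA, had 12.63, 11.89 and 10.41 in TNE and 11.15, 11.58 and 12.53 in TPIN. The groups overlapped fully, and both the highest and the lowest value were in TNE. Its difference was -0.11 with a 95% interval from -1.51 to 1.28, which leaves room for more than a doubling in either direction. Idi1, the isopentenyl diphosphate isomerase, had 10.04, 9.64 and 7.55 in TNE and 9.82, 9.51 and 9.25 in TPIN. Its 3 TPIN values lay inside the TNE range. Mvd, the decarboxylase that makes isopentenyl diphosphate, had 9.81, 9.46 and 8.66 in TNE and 9.83, 10.31 and 10.23 in TPIN, a difference of -0.81 (SE 0.36, limma adjusted p = 0.136). The kinases Mvk and Pmvk had differences of -0.74 and 0.51, and Fdps, the farnesyl diphosphate synthase, -0.22. None of the 6 passed.

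The squalene steps had negative differences in all 3 genes. Fdft1, squalene synthase, had 10.97, 10.68 and 10.36 in TNE and 11.52, 12.10 and 11.40 in TPIN, without overlap. Its difference was -1.002 (SE 0.31, limma adjusted p = 0.0570), and it passed without TPIN replicate 3 (adjusted p = 0.0461). Lss, which closes squalene epoxide into lanosterol, had 10.77, 9.77 and 8.88 in TNE and 10.76, 10.84 and 10.68 in TPIN. The TPIN arrays lay within 0.16 of each other and the TNE arrays spread over 1.89. It passed without TNE replicate 1, at -1.44. Sqle, squalene epoxidase, had 11.15, 10.94 and 9.73 in TNE and 11.27, 11.03 and 11.00 in TPIN.

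After lanosterol the difference was negative in 7 of 8 genes and positive in 1, Ebp. Ebp, the sterol isomerase, had 10.03, 9.98 and 9.65 in TNE and 8.93, 8.76 and 9.32 in TPIN. All TNE arrays were above all TPIN arrays, the opposite order to Nsdhl, with a difference of 0.88 (SE 0.28, limma adjusted p = 0.0601), and it passed without TPIN replicate 3 (1.04). Sc5d, the C5 desaturase, had 11.08, 10.56 and 9.77 in TNE and 11.43, 11.14 and 11.37 in TPIN, without overlap (difference -0.85, limma adjusted p = 0.132). Hsd17b7, the ketoreductase that works with Nsdhl, had a difference of -1.17 (limma adjusted p = 0.0970) and passed without TNE replicate 1, at -1.57. Msmo1, the C4 methyl oxidase, had 12.74, 11.89 and 9.94 in TNE and 11.91, 11.83 and 12.68 in TPIN, so that its highest and lowest values were both in TNE. Cyp51, the lanosterol demethylase, Tm7sf2, a C14 reductase, and Dhcr7, the last reductase of the pathway, had differences of -0.23, -0.82 and -0.42.

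The control genes had differences from -0.50 to 0.31, and none of 4 passed in limma, none with an unadjusted p under 0.05. Srebf2, which encodes SREBP-2, had 11.26, 11.07 and 10.14 in TNE and 11.53, 11.33 and 11.11 in TPIN (difference -0.50, 95% interval -1.33 to 0.33). Srebf2 is also named by a row shared with another symbol, which was not used here. Srebf1 had 10.18, 10.02 and 9.32 in TNE and 9.67, 9.74 and 10.05 in TPIN (0.02, 95% interval -0.72 to 0.75). Insig1, which holds the SREBP complex in the endoplasmic reticulum when sterols are plentiful and is itself a SREBP target, had 12.35, 11.40 and 10.29 in TNE and 11.46, 11.45 and 12.27 in TPIN. Its TPIN values lay inside the TNE range, as for Hmgcs1. Stard4, a carrier of cholesterol between membranes, had 10.80, 10.43 and 9.66 in TNE and 9.24, 10.12 and 10.59 in TPIN.

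For 15 of 17 sterol synthesis genes, the range over the TNE arrays was wider than the difference between the groups, against 50.2% of all genes. TNE replicate 3 was the lowest TNE array in 16 of 17 sterol synthesis genes and in 4 of 4 control genes, against 48.6% of all genes. TNE replicate 1 was the highest in 17 of 17 and 4 of 4, against 38.3% of all genes. With each array centred on its median the counts were 15 of 17 and 4 of 4 for the lowest (31.2% of all genes) and 16 of 17 and 4 of 4 for the highest (26.9%). The median of TNE replicate 1 minus TNE replicate 3 was 1.43 over the sterol synthesis genes and 0.15 over all genes, and after centring 1.14 and -0.15. The median SD over the 3 arrays was 0.75 in TNE and 0.36 in TPIN for the sterol synthesis genes, and 0.33 in TNE and 0.39 in TPIN for all genes. The SD was larger in TNE for 14 of the 17, against 44.6% of all genes. TNE replicate 3, low in the sterol genes, was the highest TNE array in 5 of 6 neuroendocrine and 12 of 15 fibroblast and smooth muscle markers. It was the highest in 0 of 2 epithelial markers. The part of cell makeup in the sterol values was not tested.

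**Figure D2:**
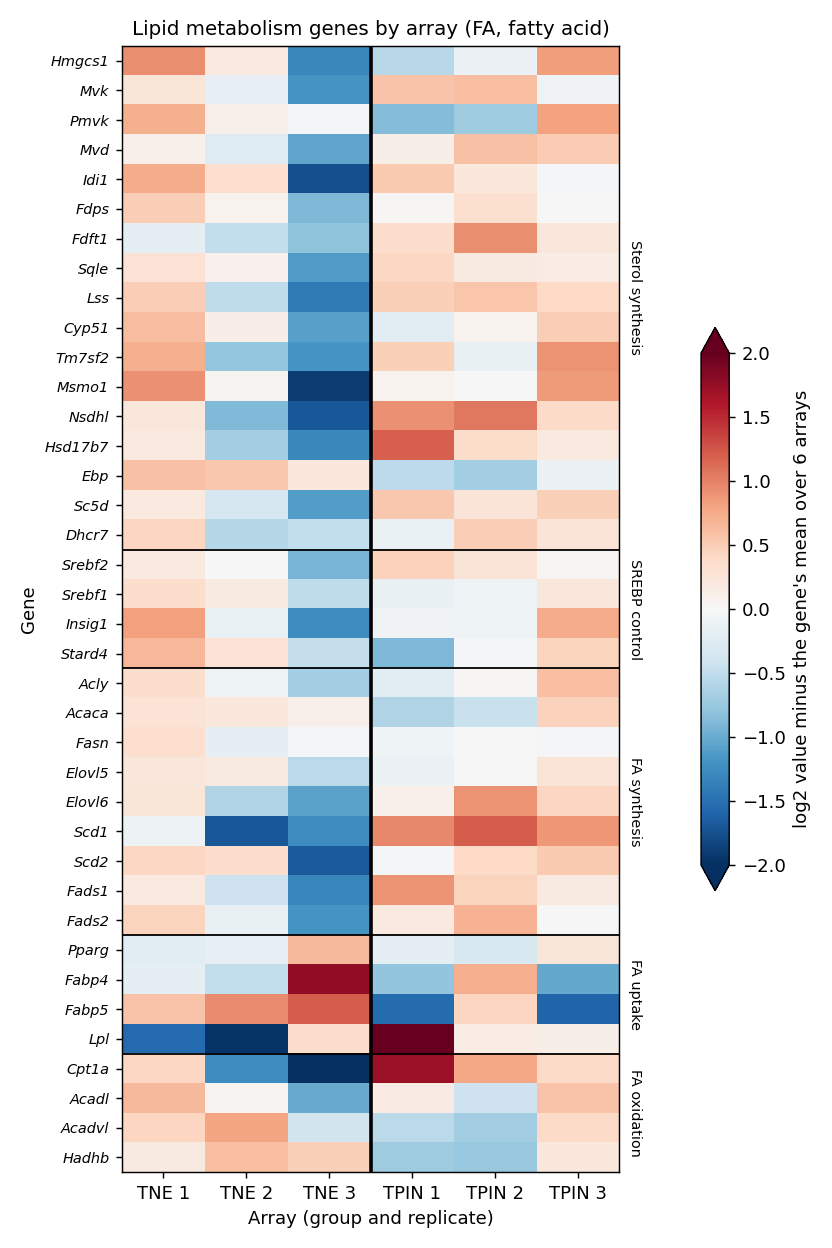
Heat map of the log2 value of each of the 38 genes (rows) on each array (columns, 3 TNE then 3 TPIN), as the departure from the gene's mean over the 6 arrays, with lines between gene groups. In the sterol rows the column of TNE 3 is mostly blue and that of TNE 1 mostly red, while the uptake rows are red in TNE 3.

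The mean of the 17 sterol synthesis genes was 10.70, 10.07 and 9.19 in TNE and 10.45, 10.49 and 10.62 in TPIN. TNE replicate 1 lay above all TPIN arrays and the other TNE arrays lay below them. With each array centred on its median, TNE replicate 1 (1.58) lay below TPIN replicate 3 (1.62) and above the other TPIN arrays. Without TNE replicate 3 the median difference was -0.28 in place of -0.62, and 10 of 17 genes had a negative difference in place of 15. Without TNE replicate 1 it was -1.04. Over all genes the same medians were 0.04 and -0.06. Hmgcs1, Idi1, Fdps, Cyp51, Msmo1 and Insig1 had positive differences without TNE replicate 3, from 0.15 to 0.50.

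**Figure D3:**
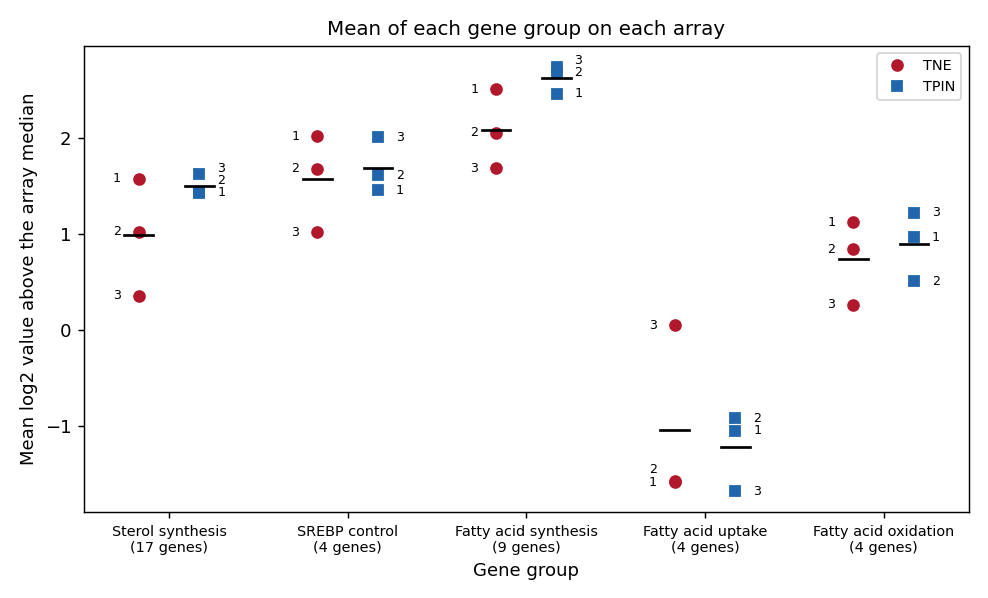
Mean log2 value above the array median (vertical axis) of each gene group (horizontal axis) on each array, with TNE as circles, TPIN as squares, the replicate number beside each point and a bar at the mean of 3 arrays. For sterol synthesis the TNE points spread from 0.36 to 1.58 and the TPIN points from 1.43 to 1.62.

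In fatty acid synthesis 1 of 9 genes passed, Scd1, which fell in TNE. Scd1 encodes the desaturase that makes oleate from stearate, and had 11.54, 9.93 and 10.38 in TNE and 12.59, 12.85 and 12.50 in TPIN. All TNE arrays lay below all TPIN arrays, with TNE replicate 1 nearest to them. The difference was -2.03, a 4.08-fold lower level on the RMA scale (SE 0.42, limma adjusted p = 0.0158). The call was lost without TPIN replicate 1 (-2.06, adjusted p = 0.0537), without TPIN replicate 2 (-1.93, adjusted p = 0.0543) and without TNE replicate 2 (-1.69, adjusted p = 0.0571). Its paralog Scd2 had 13.11, 13.04 and 11.01 in TNE and 12.66, 13.08 and 13.22 in TPIN, a difference of -0.60 (95% interval -1.90 to 0.70). In Scd2 it was TNE replicate 3 that stood low, and in Scd1 TNE replicate 2 was the lowest. Whether probes of one desaturase also bind the other was not tested.

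The enzymes that make palmitate had differences from -0.26 to 0.39. Fasn, fatty acid synthase, had 11.61, 11.08 and 11.23 in TNE and 11.18, 11.28 and 11.24 in TPIN, a difference of 0.07 (95% interval -0.54 to 0.69). Acly, which makes acetyl-CoA from citrate, and Acaca, which makes malonyl-CoA, had differences of -0.26 and 0.39. Elovl6, which extends palmitate to stearate and so supplies Scd1, had 11.58, 10.73 and 10.27 in TNE and 11.43, 12.24 and 11.77 in TPIN (difference -0.96, limma adjusted p = 0.121). The groups overlapped through TNE replicate 1. The desaturases of polyunsaturated fatty acids, Fads1 and Fads2, had -1.02 (limma adjusted p = 0.116) and -0.60, and Elovl5, their partner elongase, -0.09. The median of the 9 genes was -0.60, and it was -0.23 after quantile normalisation and 0.01 without TNE replicate 3. TNE replicate 1 was the highest TNE array in 9 of 9 of these genes and in 6 of 9 after centring.

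The uptake genes had differences of both signs, and none of 4 passed in limma, with 2 at an unadjusted p under 0.05 (Fabp5 and Lpl). Fabp5, a fatty acid chaperone of epithelial and stem-like cells, had 9.01, 9.37 and 9.64 in TNE and 6.89, 8.86 and 6.83 in TPIN. All TNE arrays were above all TPIN arrays, and TPIN replicate 2 lay 0.15 below the nearest TNE array. The difference was 1.81 (SE 0.55, limma adjusted p = 0.0526), and without TPIN replicate 2 it was 2.48 and passed (adjusted p = 0.00565). Lpl, lipoprotein lipase, had 7.10, 6.70 and 9.00 in TNE and 11.54, 8.80 and 8.76 in TPIN, with TPIN replicate 1 far above the others. Its difference was -2.11 (SE 0.87, limma adjusted p = 0.115), and -1.19 without TPIN replicate 1.

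Fabp4, the fatty acid chaperone of fat cells, macrophages and capillary endothelium, had 7.08, 6.77 and 9.03 in TNE and 6.47, 7.98 and 6.23 in TPIN. Pparg, the nuclear receptor that drives fat cell genes, had 6.96, 7.01 and 7.83 in TNE and 7.0, 6.87 and 7.43 in TPIN. Fabp4 and Pparg were among the dimmest 25% of genes by mean. With dim rows left out, the median difference of the uptake genes went from 0.455 to -0.146. TNE replicate 3 was the highest TNE array in 4 of 4 uptake genes, against 29.1% of all genes and 45.4% after centring. Markers of several cell types were also highest among the TNE arrays in replicate 3, in 2 of 2 macrophage, 5 of 6 neuroendocrine, 12 of 15 fibroblast and smooth muscle and 3 of 4 endothelial genes. Replicate 3 was the highest in 0 of 2 epithelial markers, and the adipocyte marker Lipe had 8.26, 8.79 and 8.05 in TNE. The neuroendocrine mean was 9.30, 9.83 and 10.89 in TNE. Lyz2 had 5.997, 6.001 and 9.39 in TNE and 6.99, 6.11 and 5.73 in TPIN. Cd68 had 8.56, 7.53 and 9.36 in TNE and 7.94, 7.53 and 8.09 in TPIN. The mean of these 2 markers was 6.76 to 9.38 in TNE and 6.82 to 7.47 in TPIN. There is no detection call, so these values do not show whether either marker was expressed. The part of these cell types in the uptake values was not tested.

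In fatty acid oxidation none of 4 genes passed in limma, and 2 had an unadjusted p under 0.05 in opposite directions. Cpt1a, which loads acyl chains onto carnitine at the mitochondrial surface and sets the rate of oxidation, had 10.22, 8.56 and 7.76 in TNE and 11.51, 10.58 and 10.18 in TPIN. The groups met at TNE replicate 1 and TPIN replicate 3, which differed by 0.04. The difference was -1.91 (SE 0.64, limma adjusted p = 0.0681), and it passed without TNE replicate 1 at -2.59 (adjusted p = 0.0123). Hadhb, the thiolase subunit of the trifunctional protein, had 10.23, 10.66 and 10.53 in TNE and 9.34, 9.29 and 10.26 in TPIN, a difference of 0.84 (SE 0.34, limma adjusted p = 0.111). It passed without TPIN replicate 3 (1.16). Acadvl and Acadl, acyl-CoA dehydrogenases for very long and long chains, had differences of 0.56 and -0.21.

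Set side by side, the median difference was -0.62 for sterol synthesis (17 genes), -0.60 for fatty acid synthesis (9 genes), 0.17 for oxidation (4 genes) and -0.02 for all genes. Without TNE replicate 3 these medians were -0.28, 0.01, 0.53 and 0.04, and after quantile normalisation -0.42, -0.23, 0.23 and 0.06. Without TNE replicate 1 they were -1.04, -0.96, -0.05 and -0.06, so that the sign for oxidation turned, as it did without TPIN replicate 2 (-0.06). Leaving out TNE replicate 2 gave an oxidation median of 0.0068, and leaving out TPIN replicate 3 gave 0.46. With array weights the medians were -0.61, -0.11, 0.65 and -0.0050. The mean of the fatty acid synthesis genes was 11.64, 11.10 and 10.52 in TNE and 11.49, 11.73 and 11.74 in TPIN. The mean of the oxidation genes was 10.25, 9.88 and 9.09 in TNE and 9.99, 9.56 and 10.22 in TPIN. All 3 means had the same order of TNE arrays, with replicate 3 lowest, and in all 3 the groups overlapped. For oxidation this order depended on Cpt1a. The mean of the other 3 oxidation genes was 10.26, 10.32 and 9.54 in TNE, with replicate 2 highest. No test of a difference between the gene groups was made.

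Other genes of lipid metabolism passed in both directions. Of 166 further genes listed by their known roles, 103 had a row and 18 passed (17.5%, against 20.5% of all genes), 15 lower and 3 higher in TNE. Of these 18, 7 kept their calls without any 1 array: Ch25h, Lbr, Lipa, Hacd4, Elovl4, Lrp1 and Plin3. The other 11 lost theirs without at least 1 array, 11 of them without TPIN replicate 1, 10 without TNE replicate 2, 8 without TPIN replicate 2, 6 without TNE replicate 3, 3 without TNE replicate 1 and 1 without TPIN replicate 3.

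Among 19 further sterol genes 4 fell and 1 rose. Ch25h, which makes 25-hydroxycholesterol, had 5.73, 6.52 and 5.92 in TNE and 9.85, 10.90 and 9.89 in TPIN. No TNE value came near the TPIN values, and the difference of -4.15 corresponds to a 17.8-fold lower level (SE 0.38, limma adjusted p = 0.00113). With no detection call, how far the TNE values of Ch25h lie above background is not known. Lipa, lysosomal acid lipase, had 9.36, 8.73 and 8.45 in TNE and 10.61, 11.18 and 11.20 in TPIN (4.44-fold lower, limma adjusted p = 0.00576). Npc2, the sterol carrier of the lysosome lumen, and Stard5, a sterol carrier of the cytosol, fell by 1.53 and 1.36 on the log2 scale. Npc1, the membrane partner of Npc2 in cholesterol export, had a difference of -0.89 and did not pass (limma adjusted p = 0.0895). Leaving out 1 array ended the call of Npc2 for TPIN replicates 1 and 2 and TNE replicates 2 and 3, and that of Stard5 for TPIN replicates 1 and 2. Lbr, a protein of the nuclear envelope that is also a sterol C14 reductase, rose: it had 11.54, 11.59 and 11.46 in TNE and 9.63, 9.62 and 10.12 in TPIN (3.35-fold higher, limma adjusted p = 0.00550). Tm7sf2, which catalyses the same step, had a difference of -0.82 and did not pass (limma adjusted p = 0.272).

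Among 22 further fatty acid synthesis genes 2 fell and 1 rose. Hacd4, of the family of dehydratases in chain elongation, had 6.05, 6.60 and 6.46 in TNE and 9.25, 9.99 and 9.84 in TPIN (10.0-fold lower, limma adjusted p = 0.00113). Elovl4, an elongase for very long chains, had 10.41, 10.60 and 10.49 in TNE and 8.50, 7.37 and 8.05 in TPIN (5.77-fold higher, limma adjusted p = 0.00344). The groups of Hacd4 and Elovl4 were far apart. As for Ch25h, how far the TNE values of Hacd4 lie above background is not known. Slc25a1, the mitochondrial citrate exporter that feeds Acly, was 3.11-fold lower in TNE (limma adjusted p = 0.0153), a call that ended when TPIN replicate 1 or 2 or TNE replicate 2 was left out.

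Among 33 further oxidation genes 3 fell and none rose. Acadsb, a dehydrogenase for short branched chains, the nuclear receptor Ppard and the peroxisomal transporter Abcd2 were 2.35-fold, 2.99-fold and 3.52-fold lower in TNE. Abcd2 had 6.12, 6.27 and 6.27 in TNE, and how far these values lie above background is not known. Acadsb lost its call without TPIN replicate 1 or TNE replicate 2, Ppard without any of TPIN replicates 1 and 2 and TNE replicates 2 and 3, and Abcd2 without any array but TPIN replicate 2. Hadh, a mitochondrial dehydrogenase of beta-oxidation, had 10.97, 10.67 and 8.94 in TNE and 10.97, 10.53 and 10.78 in TPIN, with TNE replicate 3 alone low (difference -0.57, limma adjusted p = 0.439). Among 29 further genes of uptake and storage 6 fell and 1 rose. Lrp1, a large endocytic lipoprotein receptor, had 10.69, 9.62 and 10.24 in TNE and 13.49, 12.76 and 12.88 in TPIN (7.26-fold lower, limma adjusted p = 0.00303). Plin3, a coat protein of lipid droplets, had 7.84, 7.73 and 7.74 in TNE and 9.79, 9.33 and 10.62 in TPIN (4.43-fold lower, limma adjusted p = 0.00738).

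Angptl4, an inhibitor of lipoprotein lipase and a PPAR target, had 7.32, 7.67 and 8.37 in TNE and 11.89, 10.52 and 8.65 in TPIN. TPIN replicate 3 came within 0.28 of the TNE arrays, and the call (5.92-fold lower, limma adjusted p = 0.0473) held only without TPIN replicate 3. Lpin3, a phosphatidate phosphatase, Agpat2, an acyltransferase of glycerolipid synthesis, and the nuclear receptor Rxra were 2.29-fold, 2.61-fold and 2.34-fold lower in TNE. Agpat5, another acyltransferase of that family, was 2.91-fold higher. The call of Lpin3 ended when TPIN replicate 1 or 2 or TNE replicate 2 was left out, and that of Agpat5 for TPIN replicate 1 and TNE replicates 1 and 2. For Agpat2 and Rxra the same held for TPIN replicates 1 and 2 and TNE replicates 2 and 3. These differences stood beside a mean of the fibroblast and smooth muscle markers of 7.65 to 8.49 in TNE and 11.21 to 11.51 in TPIN, and the part of such cells in them was not tested.

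**Figure D4:**
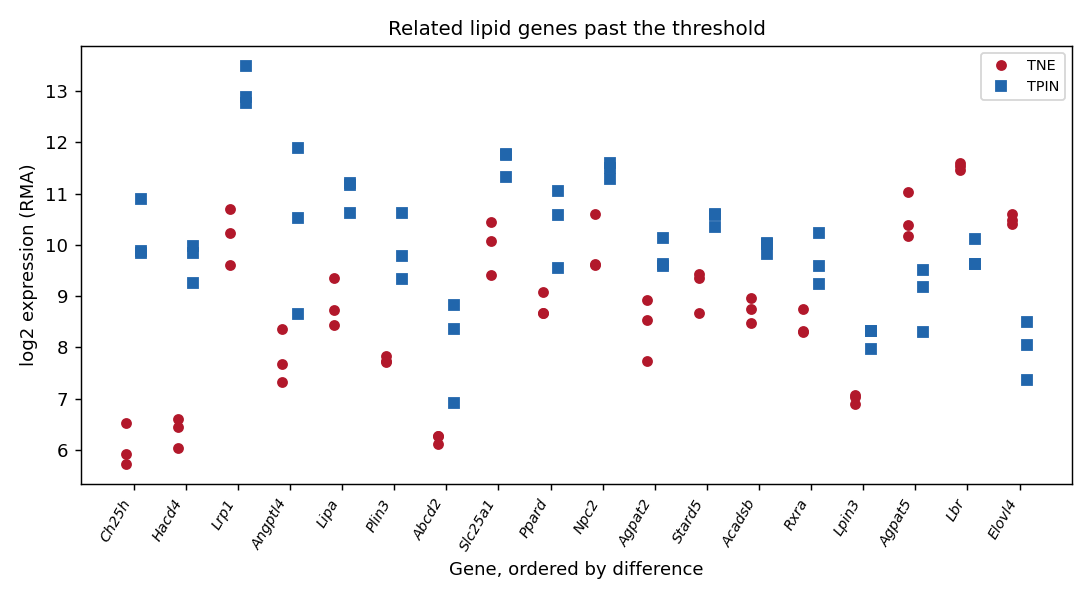
Log2 expression (vertical axis) of the 18 further lipid genes past the threshold (horizontal axis, ordered by difference), with each TNE array as a circle and each TPIN array as a square. Among these 18 genes Ch25h shows the widest gap below TPIN and Elovl4 the widest gap above it.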

How the data were processed

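Total RNA of 6 samples of cultured cells was hybridised as biotin-labelled cDNA to single-colour whole-transcript arrays. The deposited values are log2 expression, produced by the authors with RMA according to the submitters' processing notes. RMA subtracts background, equalises the arrays' distributions and combines the probes of a row, and it compresses differences of dim rows. Its version, the genome build and the rule behind the 10361 rows held are not stated in the sources. Over those rows the array medians still differed, from 8.82 in TNE replicate 3 to 9.10 in TNE replicate 1. There is no detection call, and precision is limited by the number of arrays.

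The array annotation gave a single symbol to 9496 rows. For 6 genes with several rows the brightest row was kept, which left 9490 genes. Groups follow the sample titles, although GEO's description field gives intraepithelial neoplasia for the TNE samples too. The labels do not say that replicates are separate mice or cultures, so p-values cover only the spread between these samples, part of which may be technical. Replicate numbers follow accession order and pair nothing.

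TNE was compared with TPIN in limma 3.58.1 (R 4.3.3) with 1 mean per group, empirical Bayes moderation and two-sided tests. A run on simulated data checked only that the code recovered large shifts. It does not measure power or error at the differences reported here. P-values were adjusted over all 9490 genes. Members and lists were chosen with earlier results of these data known. Genes named were every member with a row, further pathway genes past the threshold (at most 8 a list), 5 chosen whatever their values, and the 2 brightest markers of each cell type. Lists are described by counts and medians, with no set test. Alternatives were the mean of several rows, dim rows left out, quantile normalisation, median centring, an intensity trend with a robust prior, array weights and leaving out each array.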

Additional observations from a re-analysis of the deposited data

How the results depend on the processing

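The 12 alternatives gave 454 differences for the 38 genes, of which 28 had the opposite sign to the difference reported, in 15 genes whose reported differences had not passed. In 25 of the 38 genes no alternative gave a call. Using the mean of a gene's rows, or an intensity trend with a robust prior, changed no sign and no call among the 38 genes. With array weights, which gave TNE replicate 2 a weight of 3.26 and TPIN replicate 3 0.345, 4267 genes passed in place of 1941. The counts were then 4 for sterol synthesis, 3 for fatty acid synthesis, 1 for uptake, 3 for oxidation and 41 for the further genes, where 0, 1, 0, 0 and 18 were reported. Hmgcs1 (0.35), Cyp51 (0.085), Fasn (-0.037), Elovl5 (0.14), Fabp4 (-0.21) and Acadl (0.18) then changed sign. With dim rows left out, 1 sterol synthesis gene (Nsdhl) and 1 uptake gene (Fabp5) passed, and with arrays centred on their medians 2 sterol synthesis genes (Nsdhl and Fdft1). Quantile normalisation turned Hmgcs1 to 0.12 and Elovl5 to 0.15 and left the counts of the gene groups as reported.

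Leaving out each array gave 832 to 2596 genes in all, 0 to 3 in sterol synthesis, 0 to 1 in fatty acid synthesis, uptake and oxidation, 0 in SREBP control and 7 to 25 among the further genes. The differences then ranged from -0.61 to 0.50 for Hmgcs1, -0.94 to 0.31 for Idi1, -0.53 to 0.17 for Fdps, -0.59 to 0.26 for Cyp51, -1.23 to 0.18 for Msmo1, -0.16 to 0.28 for Srebf1, -0.89 to 0.15 for Insig1, -0.061 to 0.63 for Stard4, -0.51 to 0.0058 for Acly, -0.078 to 0.19 for Fasn, -0.22 to 0.16 for Elovl5, -0.96 to 0.088 for Scd2, -0.11 to 0.34 for Pparg and -0.59 to 0.24 for Acadl. Of the changes of sign, 11 came without TNE replicate 3. Over all genes, the counts more than 1.5 times below 1941 were 832 (TNE replicate 2 left out), 936 (TPIN replicate 1) and 1115 (TPIN replicate 2). The cause of these changes was not tested. No paired analysis was possible because the labels give no number that samples share.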
